A study of Homo sapiens with 8 samples.

Results

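Platelet granule proteins are represented here by 10 genes. PF4, PPBP and PF4V1 encode granule chemokines, VWF and MMRN1 encode adhesive proteins, and SELP encodes a granule membrane receptor. SRGN encodes the proteoglycan that packs granule cargo, TUBB1 the tubulin of the platelet's marginal band, CLU a secreted chaperone and NRGN a calmodulin-binding protein. The genes were taken as a named list. Each was represented by the probe set of highest mean log2 signal among those that the platform annotation assigns to it alone. The 10 genes had 17 such probe sets, out of 41097 single-gene probe sets for 19775 genes on the array. A filter asked for a signal over 60.0, the median of all values, on 2 or more arrays, and all 10 genes were kept. PF4V1 was kept through 3 arrays, all from shRNA-carrying cells, and VWF through 5 arrays, all 4 from such cells and 1 from DMSO-treated cells.

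Megakaryocytes, the bone marrow cells that shed platelets, load alpha granules with chemokines and adhesive proteins before the platelets form. On activation the platelet releases the chemokines and von Willebrand factor and moves P-selectin, the SELP product, to its surface. Transcription factors of the GATA and ETS families, together with RUNX1, drive many megakaryocyte genes.

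RNA was measured in HEL cells, a human line from an erythroleukaemia that carries an activated JAK2 and is known for mixed erythroid and megakaryocytic features. In the shRNA arm, PRMT5 shRNA cells were a stable line made with the lentiviral vector pLKO and 1 shRNA against PRMT5, an arginine methyltransferase, and their control carried a scramble shRNA. In the drug arm, cells received CEP701 (lestaurtinib, an inhibitor of JAK2 and FLT3) at 0.5 µM for 16 h, or its vehicle DMSO for 16 h, and the labels name no shRNA there. All cells were grown in RPMI with fetal bovine serum, each of the 4 groups had 2 arrays, and the design text sets the drug profile beside the knockdown profile. Nothing in the labels says that the 2 arrays of a group came from separate cultures. The p-values therefore rest only on the spread among these samples, possibly a technical one, and the number of arrays limits the precision. In RNA from whole cultures, fewer cells of a type and less RNA per cell cannot be told apart.

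The stretches before the start site are shown for 4 members. Of these, PPBP, MMRN1 and TUBB1 passed the test as higher with scramble than with DMSO. The chemokine gene PF4V1 did not pass, although its difference of 3.06 ± 1.42 log2 units (SE) was above the 1.61 of MMRN1. The stretches are from RefSeq on GRCh38.p14, 250 bases before a start, on the gene's own strand. Capitals mark a GATA motif (AGATAA, or TTATCT on the other strand) or an ETS motif (GGAAGT, or ACTTCC on the other strand). They lie at chr4:73988191-73988440 on the minus strand (PPBP), and on the plus strand at chr4:73853046-73853295 (PF4V1), chr4:89894604-89894853 (MMRN1, the downstream of its 2 starts) and chr20:59019179-59019428 (TUBB1).
PPBP: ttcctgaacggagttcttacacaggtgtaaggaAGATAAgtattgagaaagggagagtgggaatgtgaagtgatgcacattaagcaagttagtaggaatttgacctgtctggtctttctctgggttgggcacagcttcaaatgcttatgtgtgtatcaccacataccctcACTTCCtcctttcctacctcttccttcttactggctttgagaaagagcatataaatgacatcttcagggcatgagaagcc
PF4V1: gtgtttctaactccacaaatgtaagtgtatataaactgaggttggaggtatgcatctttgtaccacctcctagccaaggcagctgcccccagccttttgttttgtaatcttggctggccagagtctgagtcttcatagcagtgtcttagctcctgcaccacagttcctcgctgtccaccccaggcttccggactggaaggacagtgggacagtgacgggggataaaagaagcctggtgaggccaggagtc
MMRN1: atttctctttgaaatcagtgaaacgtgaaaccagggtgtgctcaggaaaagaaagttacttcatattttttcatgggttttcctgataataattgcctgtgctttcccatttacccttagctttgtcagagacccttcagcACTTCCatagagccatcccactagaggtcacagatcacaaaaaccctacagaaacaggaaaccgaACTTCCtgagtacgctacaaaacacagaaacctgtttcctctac
TUBB1: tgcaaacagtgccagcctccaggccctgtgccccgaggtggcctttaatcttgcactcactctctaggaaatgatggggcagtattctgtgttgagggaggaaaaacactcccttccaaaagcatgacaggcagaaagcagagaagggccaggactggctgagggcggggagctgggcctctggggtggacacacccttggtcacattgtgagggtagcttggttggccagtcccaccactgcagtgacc

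The PPBP window held a GATA match starting 217 bases and an ETS match starting 80 bases before the start, and the MMRN1 window held ETS matches 109 and 44 bases before it. The PF4V1 and TUBB1 windows held neither motif. The TUBB1 window lies inside the annotated span of the gene, before a downstream start, so the stretch before the upstream end of TUBB1 was not searched. Of 35116 promoter windows of the same length, 9.17% held the GATA motif, 19.5% the ETS motif and 1.69% both. The RefSeq promoter table held 7 windows for 6 of the members. Among the 3 not printed, the SELP window had an ETS match 52 bases before the start, and the windows of NRGN and of the upstream MMRN1 start had neither motif. PF4, VWF, SRGN and CLU were not looked up elsewhere. A match describes letters in the window and is not evidence of a bound factor. PF4 (chr4:73980811-73982124), PPBP (chr4:73986439-73988190) and PF4V1 (chr4:73853296-73854483) lie near each other on chromosome 4, as annotated on GRCh38.p14, and MMRN1 (chr4:89879511-89954614) lies further along it. SELP (chr1:169588849-169630124), SRGN (chr10:69087603-69104811), NRGN (chr11:124739942-124747210), VWF (chr12:5948877-6124670), TUBB1 (chr20:59016438-59026654) and CLU (chromosome 8) lie on other chromosomes.

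The 2 arms stood apart. Across 14162 genes, Pearson's r between arrays was 0.804 to 0.845 between arms and 0.954 to 0.978 within an arm. Summed signals of 17 monocyte and granulocyte marker genes were 70323 to 110850 with PRMT5 shRNA, 97243 to 116833 with scramble, 8996 to 10064 with CEP701 and 6299 to 6502 with DMSO. S100A9, a granulocyte calprotectin subunit, was near 0 on the drug-arm arrays, at 3.84 to 7.78, and at 9615 to 10109 on the shRNA-arm arrays. Against the shared HEL label, MTAP, a gene chosen here after its values were seen, had signals of 374 to 604 on the shRNA-arm arrays and 1.54 to 15.8 on the drug-arm arrays. Megakaryocyte markers, named here after their values were seen, were uneven between the arms. ITGA2B, the platelet integrin subunit, had signals of 5285 to 10139 in the shRNA arm and 6645 to 8165 in the drug arm. CD9, a tetraspanin, had 4025 to 10577 against 411 to 776, and CLEC1B, the podoplanin receptor, 1629 to 5880 against 103 to 127. P2RY12, the platelet ADP receptor, was low in both, at 13.9 to 109 against 1.68 to 14.9. ESAM and TREML1 were lower in the shRNA arm, ESAM at 211 to 399 against 1745 to 3316 and TREML1 at 92.4 to 235 against 253 to 439. PRMT5 itself, at its 3 probe sets, had 35.2%, 41.7% and 45.8% of the scramble mean in PRMT5 shRNA cells. The difference of -1.52 log2 units did not pass the test (adjusted p = 0.217), and passed with a block for the array pairs that share a title suffix (adjusted p = 1.56e-04). PRMT5 also differed between the control groups, by -1.31 for scramble against DMSO (adjusted p = 0.0120). Arm, vector, handling and cell stock cannot be told apart in this design, so comparisons between arms are given as measured.

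**Figure D1:**
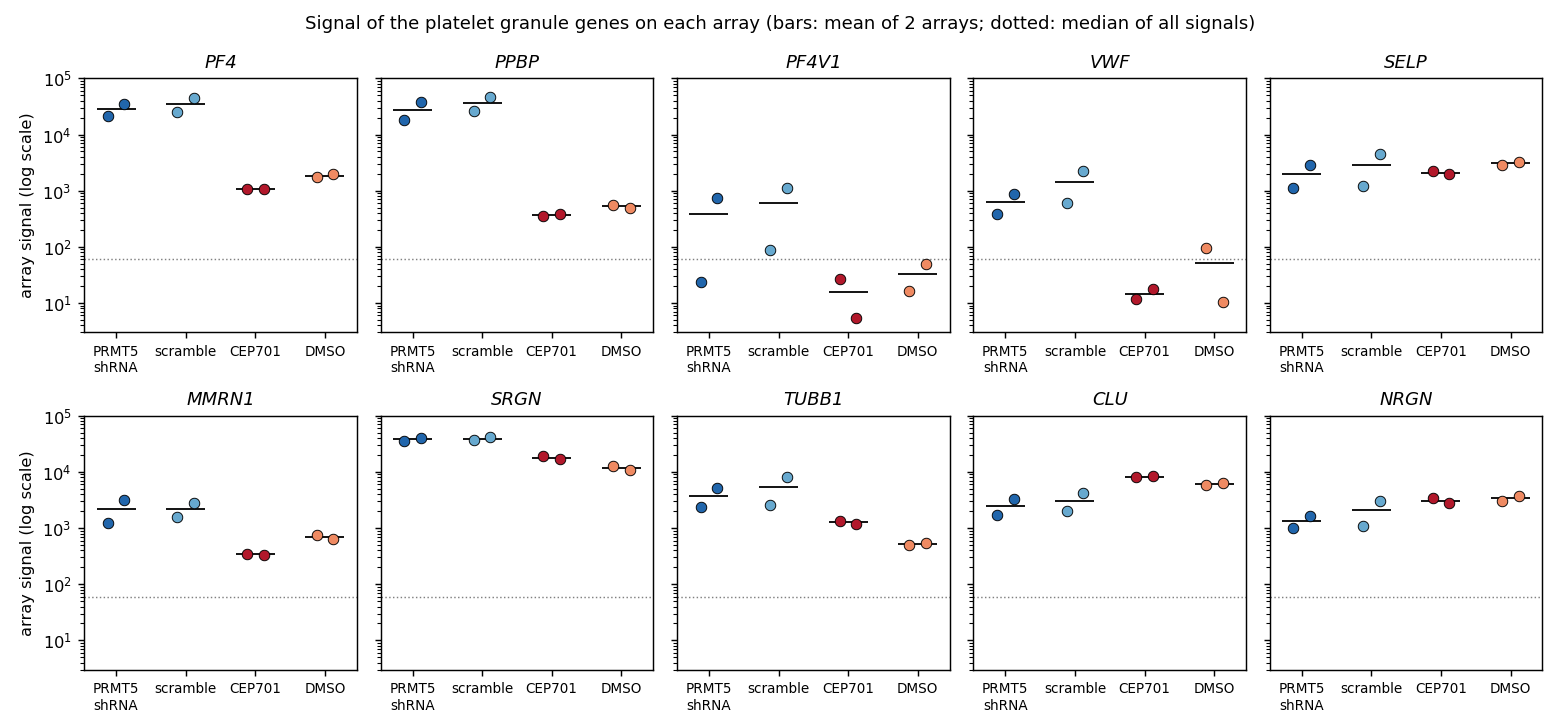
Signal on each of the 8 arrays (log axis) for the 10 platelet granule genes, with points for single arrays, bars for the mean of 2 arrays and a dotted line at the median of all signals, 60.0. PPBP sat between 18387 and 47271 on the 4 shRNA-arm arrays and between 357 and 565 on the 4 drug-arm arrays, while CLU was lower in the shRNA arm.

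PF4, platelet factor 4, is the heparin-binding chemokine of alpha granules. At its probe set 206390_x_at the signal was 21810 and 35464 with PRMT5 shRNA, 25549 and 45436 with scramble, 1084 and 1054 with CEP701 and 1725 and 1980 with DMSO. Both CEP701 arrays lay below both DMSO arrays, the PRMT5 shRNA and scramble arrays overlapped, and every shRNA-arm array was above every drug-arm array. On the scale of log2(signal + 10), used for all differences here, PF4 was 4.20 ± 0.28 higher with scramble than with DMSO (SE; 18.3-fold, adjusted p = 4.85e-06). The CEP701 difference of -0.78 ± 0.28 did not pass (adjusted p = 0.128), and passed when arrays were scaled to their medians (adjusted p = 0.0497) or poly-A controls (adjusted p = 0.0170). Both scalings lowered the median of all genes too. The distance of PF4 from that median was -0.88 in the reported fit, -0.89 with median scaling and -0.90 with poly-A scaling. The _x_at probe set of PF4 is of a class that can cross-hybridise, so signal from the near-identical PF4V1 may be included.

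PPBP encodes pro-platelet basic protein, which is cleaved to a neutrophil chemoattractant. At 214146_s_at its signal was 18387 and 37281 with PRMT5 shRNA, 26323 and 47271 with scramble, 357 and 383 with CEP701 and 565 and 499 with DMSO. Its arrays were ordered like those of PF4, with both CEP701 arrays below both DMSO arrays and the PRMT5 shRNA arrays overlapping the scramble arrays. The scramble arrays were 6.03 ± 0.33 log2 units above the DMSO arrays (SE; 65.2-fold, adjusted p = 1.72e-06). PPBP had the widest such difference of the 10 genes. With CEP701 it differed from DMSO by -0.51 ± 0.33, which did not pass (adjusted p = 0.387).

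PF4V1, the variant copy of PF4 (probe set 207815_at), had signals of 23.4 and 741 with PRMT5 shRNA, 89.1 and 1096 with scramble, 26.5 and 5.46 with CEP701 and 16.7 and 49.2 with DMSO. Its signal was above the median of all values on 3 arrays, and the drug-arm values lie in the range where the added 10 sets the difference. In both shRNA-arm groups 1 array was high and the other was more than 10 times lower. The scramble arrays exceeded the DMSO arrays by 3.06 ± 1.42 log2 units, which did not pass the test (adjusted p = 0.107). Both scramble arrays lay above both DMSO arrays. The difference passed in 6 of 20 alternative settings, among them both replicate blocks, which remove part of the error of this comparison.

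VWF, the multimeric protein that tethers platelets to the vessel wall (probe set 202112_at), had signals of 387 and 880 with PRMT5 shRNA and 615 and 2202 with scramble. Its signal was 11.6 and 17.8 with CEP701 and 94.3 and 10.6 with DMSO. All drug-arm values but that of the first DMSO array lie under the median of all signals, and the DMSO values enclosed the CEP701 values. VWF was 4.67 ± 0.79 log2 units higher with scramble than with DMSO (25.4-fold, adjusted p = 0.00111), a fold that depends on the added 10 at the DMSO level. It was 5.84 without the first DMSO array and 3.50 without the second. The CEP701 difference was -0.92 ± 0.79 (adjusted p = 0.516). It was 0.25 without the first DMSO array, so the sign rests on that array. The other VWF probe set, 233980_s_at, was 1.15 for CEP701 against DMSO and 1.21 for scramble against DMSO, without overlap of the arrays, but its signal was above the median of all values on 0 of 8 arrays. VWF is also made by endothelial cells. Of 14 measured endothelial marker genes 7 were lower with scramble than with DMSO and 1 was higher, against 20.3% and 25.5% of all genes. CDH5, the endothelial cadherin, had signals of 2.05 to 5.79 in the shRNA arm and 174 to 319 in the drug arm. EGFL7, on the same list, had 1228 and 1212 with scramble and 607 and 730 with DMSO. The part of endothelial genes in the VWF difference was not tested.

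MMRN1 encodes multimerin 1, the alpha granule carrier of a coagulation factor. At 205612_at its signal was 1219 and 3151 with PRMT5 shRNA, 1562 and 2851 with scramble, 352 and 333 with CEP701 and 741 and 631 with DMSO. Lowest were the CEP701 arrays, both of them under the DMSO arrays, and the PRMT5 shRNA values enclosed the scramble values. MMRN1 was 1.61 ± 0.41 log2 units higher with scramble than with DMSO (3.06-fold, adjusted p = 0.00975). That call was lost without the second DMSO array (adjusted p = 0.0676) and without the second scramble array (adjusted p = 0.0695). The CEP701 difference of -0.98 ± 0.41 did not pass (adjusted p = 0.180), and passed with the poly-A scaling (adjusted p = 0.0316). That scaling lowered the median of all genes too. The distance of MMRN1 from that median was -1.08 in the reported fit and -1.09 with poly-A scaling.

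SELP encodes P-selectin, which binds leukocytes once granules fuse with the surface. At 206049_at its signal was 1101 and 2883 with PRMT5 shRNA, 1232 and 4597 with scramble, 2224 and 1993 with CEP701 and 2914 and 3281 with DMSO. Scramble arrays lay on both sides of the DMSO arrays, and the arms overlapped. Neither the difference of scramble from DMSO (-0.38 ± 0.56 log2 units, adjusted p = 0.620) nor that of CEP701 from DMSO (-0.55 ± 0.56, adjusted p = 0.587) passed the test. Without the first scramble array the difference of scramble from DMSO was 0.57, so its sign rests on that array. Without the second scramble array it was -1.32 and passed (adjusted p = 0.0443).

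SRGN encodes serglycin, the proteoglycan core that holds PF4 and other cargo in granules of many blood cells. At 201859_at its signal was 35572 and 40052 with PRMT5 shRNA, 37076 and 41566 with scramble, 18976 and 16724 with CEP701 and 12772 and 10613 with DMSO. Its shRNA-arm replicates were the closest of the 10 genes, and both CEP701 arrays lay above both DMSO arrays. SRGN rose 1.53-fold with CEP701 (0.61 ± 0.14 log2 units, adjusted p = 0.0419). It was 1.75 ± 0.14 higher with scramble than with DMSO (3.37-fold, adjusted p = 1.48e-05). The probe set 201858_s_at of SRGN gave 0.57 for CEP701 and 2.85 for scramble against DMSO. The dim probe set 1554676_at gave -0.34 with overlapping arrays for CEP701.

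TUBB1 encodes beta-1 tubulin, the platelet and megakaryocyte isotype of the microtubule ring. At 230690_at its signal was 2349 and 5231 with PRMT5 shRNA, 2587 and 7979 with scramble, 1344 and 1205 with CEP701 and 500 and 532 with DMSO. Both CEP701 arrays were at more than 2 times the DMSO signal, and the shRNA-arm arrays were above them all. The CEP701 difference, 1.29 ± 0.48 log2 units, did not pass (adjusted p = 0.141). It stayed at 1.29 without the first or the second scramble array, which enter only the spread that all contrasts share. In a fit of the drug arrays alone TUBB1 passed (adjusted p = 4.62e-04), as did 22.7% of all genes. The scramble arrays exceeded the DMSO arrays by 3.12 ± 0.48 (8.67-fold, adjusted p = 6.69e-04). This was 3.93 without the first and 2.31 without the second scramble array. The dim TUBB1 probe set 208601_s_at gave -0.67 for CEP701, with overlapping arrays, and 1.84 for scramble against DMSO. Its CEP701 signals were 79.1 and 8.31 and its DMSO signals 47.3 and 61.7.

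CLU, clusterin, is an extracellular chaperone also made outside the platelet lineage. At 208792_s_at its signal was 1693 and 3340 with PRMT5 shRNA, 1981 and 4136 with scramble, 8213 and 8365 with CEP701 and 5788 and 6434 with DMSO. CLU was the gene with all 4 shRNA-arm arrays below all 4 drug-arm arrays, and both CEP701 arrays lay above both DMSO arrays. It was lower with scramble than with DMSO by a log2 difference of -1.09 ± 0.36 (adjusted p = 0.0315), and by -1.11 and -2.11 at the probe sets 208791_at and 222043_at. The call held in 14 of 21 alternative settings and was lost without any 1 of the CEP701 and DMSO arrays (adjusted p = 0.0559 to 0.141) or without the first scramble array (adjusted p = 0.198). With CEP701 the difference was 0.44 ± 0.36 (adjusted p = 0.487), and -0.061 when arrays were scaled to their poly-A controls.

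NRGN encodes neurogranin, a calmodulin-binding protein known from neurons and abundant in platelet RNA. At 204081_at its signal was 1023 and 1650 with PRMT5 shRNA, 1102 and 3043 with scramble, 3381 and 2807 with CEP701 and 3031 and 3772 with DMSO. These drug-arm arrays overlapped, and the second scramble array reached the level of the lower DMSO array. In the reported fit no NRGN comparison passed: the difference was -0.13 ± 0.41 for CEP701 against DMSO (adjusted p = 0.876) and -0.88 ± 0.41 for scramble against DMSO (adjusted p = 0.106). That of scramble against DMSO passed with median scaling (-1.24, adjusted p = 0.0219), with poly-A scaling (-1.28, adjusted p = 0.00615) and without the second scramble array (-1.61, adjusted p = 0.00257).

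Whether the kinase inhibitor moved the granule genes was asked by comparing CEP701 with DMSO. SRGN, the granule proteoglycan, was the 1 member of 10 that rose, and none fell, against 5.78% of all genes called in either direction (3.74% higher and 2.04% lower). Both CEP701 arrays lay above both DMSO arrays for SRGN, TUBB1 and CLU (3 of 10, against 36.3% of all genes) and below for PF4, PPBP, SELP and MMRN1 (4 of 10, against 25.7%). For PF4V1, VWF and NRGN the arrays overlapped. The median difference of the 10 genes was -0.53, against 0.10 for all genes tested. Scaling moved these values. SRGN was 0.36 (adjusted p = 0.262) with median scaling, where the median of all genes was -0.14, and 0.11 (adjusted p = 0.788) with poly-A scaling, where it was -0.38. Such scaling moves all genes on an array nearly alike, so the distance from the median of all genes, 0.51 for SRGN and 1.19 for TUBB1 in the reported fit, changes little by construction.

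The SRGN call was lost without any 1 of the CEP701 and DMSO arrays (adjusted p = 0.104 to 0.251). Over 21 alternative settings its adjusted p was 0.00192 to 0.788, under 0.05 in 11. With a replicate block in the shRNA arm, which lowers the spread that all contrasts share, 7 members passed against 22.3% of all genes. SRGN, TUBB1 (adjusted p = 1.41e-04) and CLU (0.00933) were then higher, and PF4 (4.22e-04), MMRN1 (0.00152), PPBP (0.00654) and SELP (0.0154) lower. Fitting the drug arrays alone called 6 members against 22.7% of all genes.

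**Figure D2:**
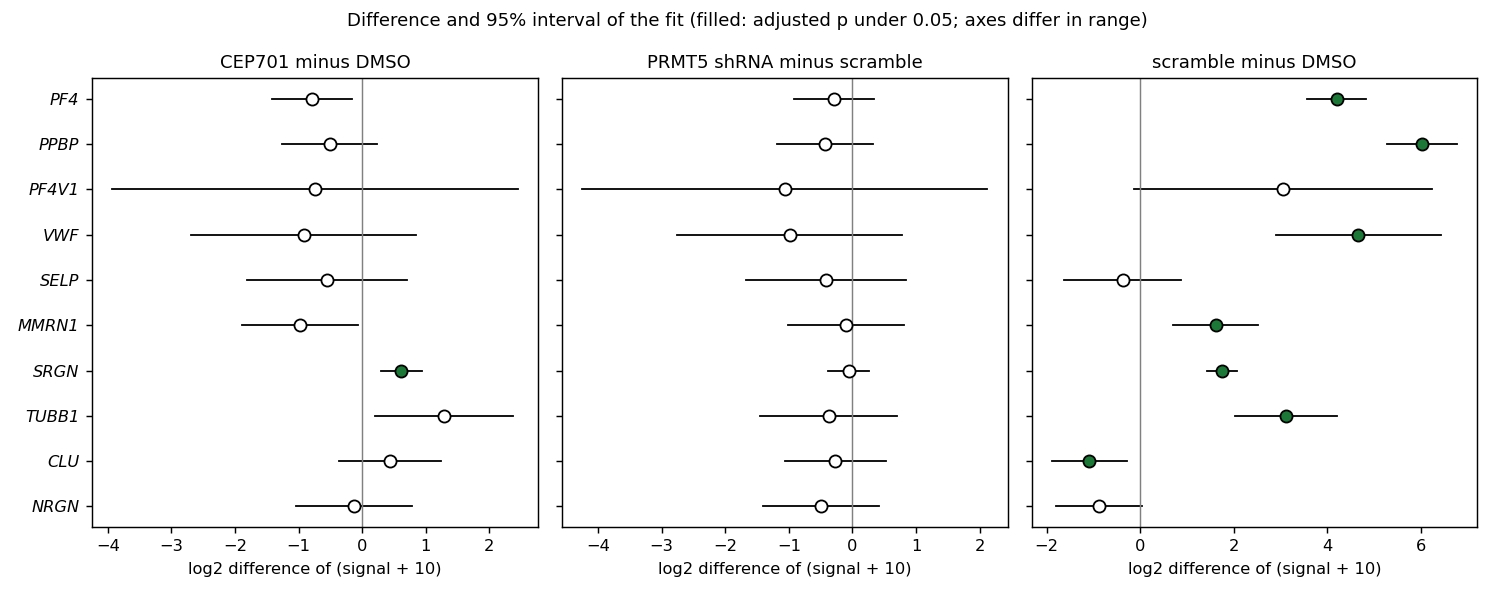
Log2 difference of signal + 10 (horizontal axes, of unequal range) with the 95% interval of the fit for the 10 genes in 3 comparisons, filled where the adjusted p was under 0.05. SRGN at 0.61 is the filled point for CEP701 against DMSO, none is filled for PRMT5 shRNA against scramble, and 7 are filled for scramble against DMSO, from CLU at -1.09 to PPBP at 6.03.

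The knockdown was read by comparing PRMT5 shRNA with scramble. None of the 10 genes passed the limma test, against 0.148% of all genes, and none had an unadjusted p under 0.05. Their adjusted p was 0.884 to 0.991. All 10 fitted differences were below 0, between -1.06 for PF4V1 and -0.057 for SRGN, with a median of -0.39 against 0.00345 for all genes. The share of all genes below 0 was not counted. The members also share replicate differences in this arm, so their signs are not separate observations. The chemokines PF4 and PPBP had differences of -0.29 ± 0.28 and -0.43 ± 0.33, with 95% intervals from -0.92 to 0.34 for PF4 and from -1.18 to 0.32 for PPBP. At the probe sets used, the PRMT5 shRNA arrays overlapped the scramble arrays for all 10 genes. The other bright SRGN probe set, 201858_s_at, was at -0.25, with both PRMT5 shRNA arrays below both scramble arrays. With overlap, CLU was at -0.099 (208791_at) and 0.026 (222043_at), TUBB1 at -0.35 (208601_s_at) and SRGN at -0.33 (1554676_at). CLU 1559228_at (1.05, without overlap) and VWF 233980_s_at (0.29) were under the median of all signals on every array. Among all genes tested, 14.1% had both PRMT5 shRNA arrays above both scramble arrays and 16.1% had both below.

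Within the pairs of arrays that share a title suffix, the PRMT5 shRNA array was below its scramble array for all 10 genes in the first pair and for 9 in the second. The exception was MMRN1, at -0.36 in the first pair and 0.14 in the second. PPBP was at -0.52 and -0.34, VWF at -0.65 and -1.31, and SRGN at -0.060 and -0.054. The share of all genes with these signs in the pairs was not counted. With the replicate block, none of the 10 passed, against 1.5% of all genes with a block in both arms and 1.74% with a block in the shRNA arm alone. Leaving out 1 array breaks the pairs, and then 8 of the 10 turned positive without the first PRMT5 shRNA array, and 8 without the second scramble array.

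The difference between the CEP701 effect and the PRMT5 shRNA effect did not pass for any of the 10 genes, against 1.43% of all genes. An unadjusted p under 0.05 was seen for 2. SRGN had a difference of effects of 0.67 ± 0.20 (adjusted p = 0.124) and TUBB1 of 1.66 ± 0.68 (adjusted p = 0.223). With the replicate block in both arms 4 members passed (CLU, SRGN and TUBB1 higher, MMRN1 lower), against 16.2% of all genes, and with a block in the shRNA arm alone PF4 also passed, against 17.3%.

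The control groups of the arms differed at 6486 genes, against 819 for CEP701 and 21 for PRMT5 shRNA. Of the 10 genes, 6 were higher with scramble than with DMSO (PPBP, VWF, PF4, TUBB1, SRGN and MMRN1) and CLU was lower, against 45.8% of all genes called (25.5% higher and 20.3% lower). PF4V1, NRGN and SELP did not pass. VWF and PF4V1 passed the filter on low values through shRNA-arm arrays, so a second count, added after seeing the data, kept the 12435 genes above the median signal on at least 2 drug-arm arrays, 8 members among them. Of those 8, 5 were higher (PF4, PPBP, MMRN1, SRGN and TUBB1) and CLU was lower, against 23.1% of such genes higher and 23.1% lower. Both scramble arrays were above both DMSO arrays for the same 5, against 37.3% of such genes, and below for CLU, against 37.4%. PF4, PPBP, SRGN, TUBB1 and VWF passed in every alternative setting that gave them a value. A replicate block removes the spread between pairs, which is part of the error of a comparison between arms. With it all 10 members passed, against 54.7% of all genes with a block in both arms and 55.1% with one in the shRNA arm alone. SELP was among them although its scramble arrays lie on both sides of the DMSO arrays, and no statement here rests on those calls. Fitting only the 4 control arrays called 8 members, against 43.8% of all genes. Over both groups of each arm, all 4 shRNA-arm arrays were above all 4 drug-arm arrays for the same 5 of 8 members, against 21.8% of such genes, and below for CLU, against 23.4%.

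The levels within a gene followed a shared order for 5 members. PF4, PPBP, PF4V1, VWF and MMRN1 had their highest mean with scramble, then PRMT5 shRNA, then DMSO and then CEP701, although PRMT5 shRNA and scramble overlapped for each of them. For PF4V1 and VWF the CEP701 and DMSO arrays overlapped too, at mostly low signals, so the order of those groups is unsure. SRGN and TUBB1 had the same order with CEP701 above DMSO, and SELP, CLU and NRGN had other orders. The span from the lowest to the highest array was 208-fold for VWF and 201-fold for PF4V1, whose lowest arrays lie under the median of all signals. It was 132-fold for PPBP, 43.1-fold for PF4, 16.0-fold for TUBB1 and 9.47-fold for MMRN1, and 3.69-fold for NRGN, which had the smallest span.

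Agreement of the 2 arrays of a group differed between the arms. The median absolute difference between replicates, over the 10 genes, was 1.09 log2 units with PRMT5 shRNA and 1.26 with scramble, against 0.33 and 0.32 for all genes in those groups. It was 0.16 with CEP701 and 0.21 with DMSO, against 0.20 and 0.19 for all genes. More than 1 log2 unit separated the replicates for 6 members in each shRNA-arm group (10.5% of all genes with PRMT5 shRNA and 10.1% with scramble), for 1 with CEP701 (PF4V1; 7.24% of all genes) and for 2 with DMSO (PF4V1 and VWF; 7.93%).

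The replicate differences in the shRNA arm ran the same way. All 10 members were higher on the second array in both the PRMT5 shRNA and the scramble group, which held for 35% of all genes. For 9 of them, all but SRGN, the difference was over 0.5 log2 units in both groups, against 7.66% of genes. SELP differed by 1.38 with PRMT5 shRNA and 1.89 with scramble, and TUBB1 by 1.15 and 1.62. SRGN, which was the most even, differed by 0.17 and 0.16. In the drug arm, 1 of 10 members was higher on the second array of both groups, against 26.2% of genes.

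Some other lists moved with these replicate differences. Of 21 measured platelet surface genes, 20 were higher on the second array of both shRNA-arm groups, against 35% of all genes. The same held for 14 of 16 monocyte and granulocyte markers, 8 of 10 mast cell and basophil markers and 17 of 28 other alpha granule cargo genes. It held for 19 of 33 granule formation and release genes and 10 of 20 megakaryocyte and erythroid transcription factors. Lists near or under the share of all genes were lymphocyte markers (4 of 11), endothelial markers (4 of 14), other tubulins (3 of 13) and chromosome 4 chemokines (2 of 9). Of 15 erythroid markers, 0 were higher on both second arrays. Their median differences were -1.11 with PRMT5 shRNA and -0.63 with scramble. The part of these markers in the members' replicate differences was not tested.

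**Figure D3:**
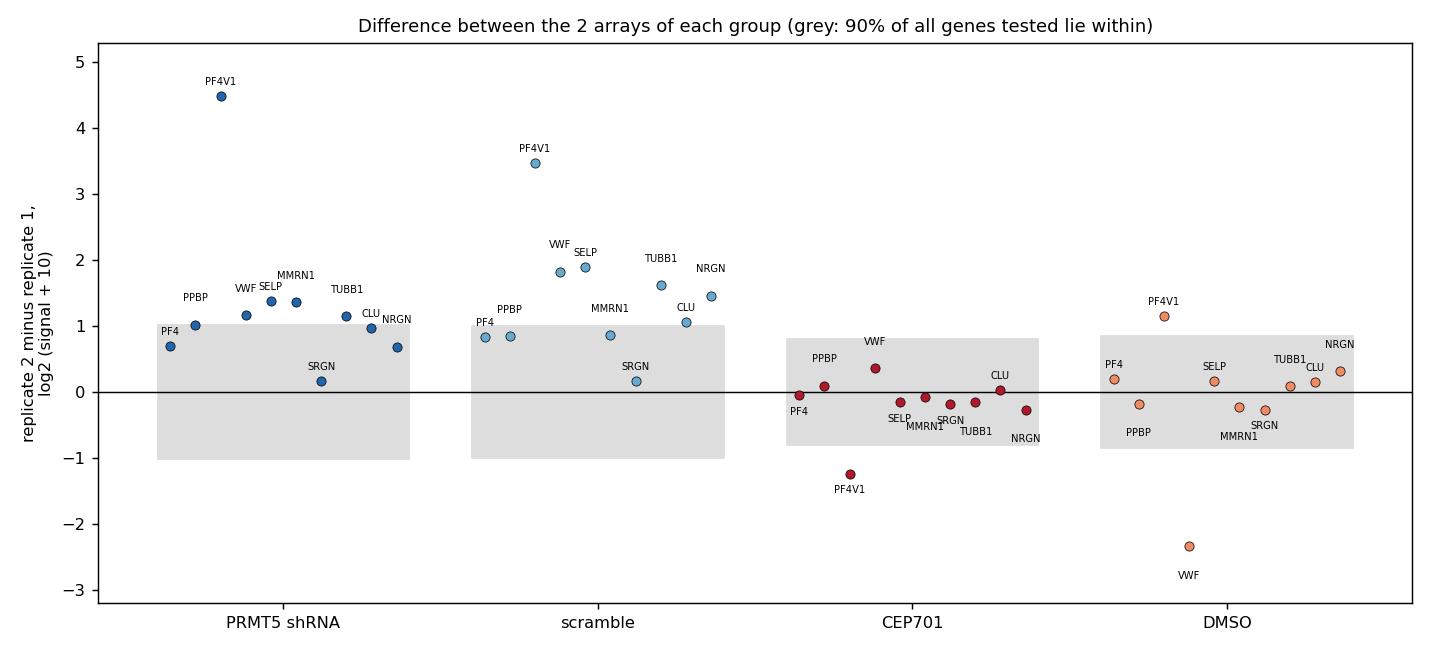
Replicate 2 minus replicate 1, on the log2(signal + 10) scale, for each of the 10 genes in each group, with a grey band that holds 90% of all genes tested. All 10 points are above 0 in the PRMT5 shRNA and scramble groups, from 0.17 and 0.16 for SRGN to 4.49 and 3.48 for PF4V1, while the CEP701 and DMSO points lie on both sides of 0.

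Other genes of the granule were counted from lists of known cargo and machinery. Their counts with CEP701 are set against 3.74% of all genes higher and 2.04% lower, and nothing is read from 1 or 2 calls in a list beyond the genes named. Of 28 measured alpha granule cargo genes outside the members, 2 rose with CEP701 and 1 fell. THBS1, thrombospondin 1, an adhesive protein released from platelets, rose by 4.18 log2 units (adjusted p = 0.00176), with signals of 16268 and 17122 with CEP701 and 948 and 876 with DMSO. TFPI, an inhibitor of tissue factor, rose by 1.01 (adjusted p = 0.0187), and VEGFA, an angiogenic factor, fell by 1.55 (adjusted p = 0.00935). None of 33 genes of granule formation and release passed. Of 13 other tubulins, 3 fell and none rose: TUBB3 by 0.96, TUBB4B by 0.89 and TUBA4A by 1.28. These calls held in 13 of 20 alternative settings for TUBB3, 11 of 20 for TUBB4B and 12 of 21 for TUBA4A. The TUBB3 and TUBB4B probe sets are of the _x_at class, which can cross-hybridise, so their signals may be shared. Neither gene had a value without that class. TUBB1 had the opposite sign to the 3 tubulins that fell and did not itself pass.

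Among chemokines encoded on chromosome 4 like PF4 and PPBP, 1 of 9 rose with CEP701 (CXCL8, interleukin 8, by 1.59) and 1 fell (CXCL1, by 1.72). The calls held in 10 of 21 alternative settings for CXCL8 and 11 of 21 for CXCL1. CXCL1 signals were 5.05 and 4.99 with CEP701 and 49.1 and 31.4 with DMSO, all under the median of all signals, so the added 10 sets the size (-2.74 with 1 added). Of 20 megakaryocyte and erythroid transcription factors, GFI1B, a repressor needed for platelet formation, fell by 1.24 (adjusted p = 0.00504), and no other passed. Of 21 platelet surface genes, CD36, a receptor for fatty acids and thrombospondin, rose by 1.09 and P2RX1, an ATP-gated channel, by 2.24. Marker lists of other cell types had few calls: 0 of 16 monocyte and granulocyte genes, 0 of 11 lymphocyte genes, 1 of 14 endothelial genes (TEK), 2 of 15 erythroid genes (EPOR higher, HBD lower) and 2 of 10 mast cell and basophil genes (KIT higher, PRG2 lower). Between PRMT5 shRNA and scramble, SPP1, osteopontin, fell by 2.50 (adjusted p = 0.0103), and no other gene of these lists passed.

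The same lists were counted between the control groups, where 25.5% of all genes were higher with scramble and 20.3% lower. They were not recounted over the genes above the median signal on at least 2 drug-arm arrays. Genes low in the drug arm were therefore kept only if high in the shRNA arm, which favours higher calls. The chromosome 4 chemokines were higher with scramble than with DMSO for 9 of 9, among them CXCL8 at 6.47 log2 units. CXCL1, CXCL5, CXCL9, CXCL10, CXCL11 and CXCL13 were under the median signal on every drug-arm array. They were kept only through shRNA-arm arrays, so their direction was largely set by the filter. CXCL13 had signals of 17208 and 11658 with scramble and 4.71 and 5.86 with DMSO, the DMSO values under the median of all signals, so no fold is given. Of the 28 other cargo genes 16 were higher and 2 lower, with SPP1 at 6.99. CCL5, another granule chemokine, was at 4.30, with DMSO signals of 76.1 and 54.0 near the median of all signals. Of the granule formation and release genes, 13 of 33 were higher and 4 lower, among them RAB27A, a GTPase of granule secretion, at 1.92. Of 21 platelet surface genes 7 were higher and 3 lower, shares near those of all genes. Of the 13 other tubulins 1 was higher (TUBA1A, at 1.83) and 4 were lower, among them TUBA4A at -2.05. Of 20 megakaryocyte and erythroid transcription factors 3 were higher and 5 lower. Among them GATA2 was at 1.34, LMO2 at 1.14, ETS1 at -4.09 and MECOM at -2.32.

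Markers of other cells moved with the granule genes in this comparison. Of 16 measured monocyte and granulocyte markers 15 were higher with scramble than with DMSO and none lower, with a median difference of 4.56. S100A8, S100A9, CD14, ELANE, PRTN3, CEACAM8 and FCN1 were under the median signal on every drug-arm array. They were kept only through shRNA-arm arrays, so the filter favoured their direction and the median depends on the added 10. Of 10 mast cell and basophil markers 9 were higher and 1 lower. The tryptase gene TPSB2 had signals of 19184 and 34473 with scramble and 53.2 and 17.9 with DMSO. It was under the median signal on every drug-arm array, so the filter favoured its direction as well. The probe sets of TPSB2 and of TPSAB1, another tryptase gene on this list, are of the _x_at class and may share signal. Summed signals of the 10 mast cell and basophil markers were 126434 to 194432 with PRMT5 shRNA, 162697 to 231935 with scramble, 86587 to 88354 with CEP701 and 59614 to 64831 with DMSO. Of 11 measured lymphocyte markers 3 were higher and 2 lower. Erythroid genes went both ways, 4 higher and 4 lower of 15, with the adult globin HBB at 4.18 and the embryonic globin HBE1 at -3.87. The HBB probe set is of the _x_at class, and HBB was at 0.030 (adjusted p = 0.974) without such probe sets. The part of these markers in the granule gene differences was not tested.

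**Figure D4:**
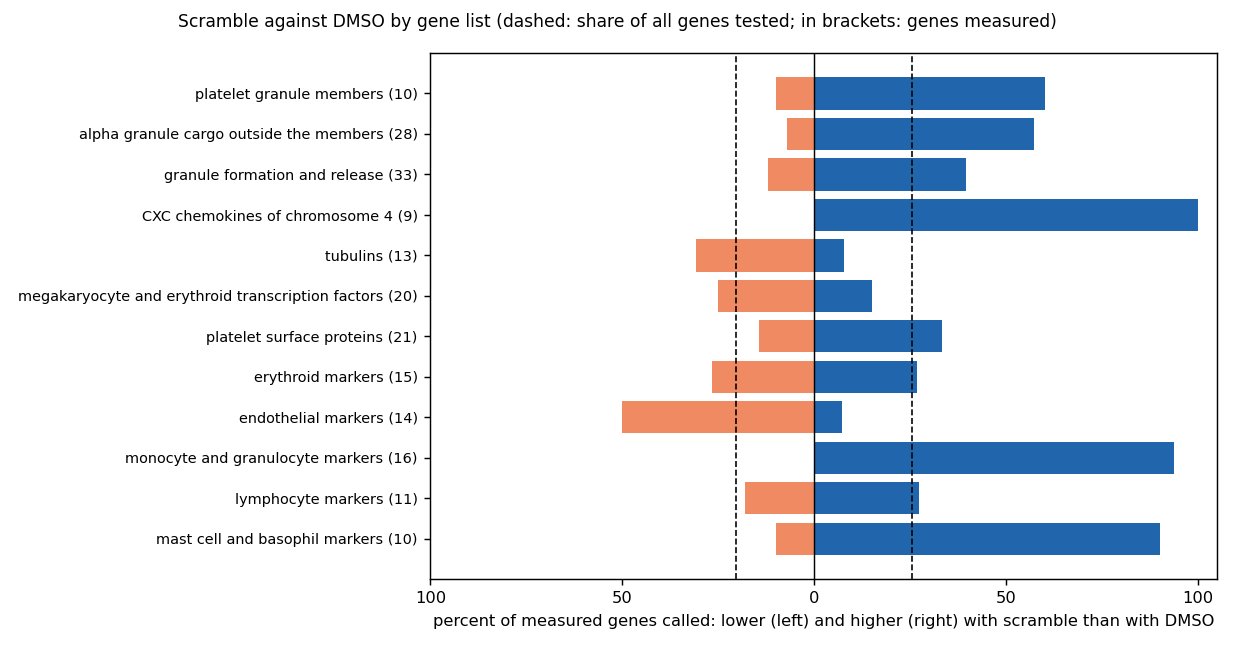
Percent of measured genes called lower (left) and higher (right) with scramble than with DMSO for the 10 granule genes and 11 other lists, with the number measured in brackets and dashed lines at the shares of all genes tested (20.3% lower and 25.5% higher). The granule genes reach 6 of 10 higher, the chromosome 4 chemokines 9 of 9, and the endothelial markers have 7 of 14 lower. Genes low in the drug arm were kept only through shRNA-arm arrays, which favours higher calls.

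The genes whose pattern was most like that of the 3 members of widest spread within arms were found by Pearson's r over the 8 arrays after each arm's mean was removed, among 5816 genes of at least 1 log2 unit span. These values describe shared deviations, which include those of the array pairs. For PF4V1 they were ESAM-AS1 (r = 0.988), PARD3 (0.981) and GNAZ (0.965). For VWF they were LSR (0.955), GLIS2 (0.952) and TPSB2 (0.907). For SELP they were CDHR1 (0.993), LTBP1 (0.982) and LINC03002 (0.982).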

How the data were processed

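RNA from 8 samples was labelled with a 3' IVT kit and measured on Affymetrix arrays of 54675 probe sets. The authors deposited 1 linear signal intensity per probe set and array. It came from MAS5 in Affymetrix Expression Console (no version stated), per the submitters' processing notes. Every array had the same mean once the lowest and highest 2% of values were left out (500.1). Arrays carry no read depth, so their number limits precision. The genome build is not given in the sources used here.

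Probe sets were named from the platform annotation, with 41043 symbols updated to current ones. Those above the median signal, 60.0, on at least 2 arrays were kept, and 1 probe set a gene (highest mean) left 14162 genes. log2(signal + 10) was fitted for 4 groups over all arrays with limma 3.58.1 (lmFit, eBayes with trend) in R 4.3.3, with Benjamini-Hochberg adjustment over all genes and a threshold of 0.05. The fit had 4 residual and 5.37 prior degrees of freedom, and was tested on simulated data. The simulated errors were independent between arrays, so the test did not cover deviations that paired arrays share. Intervals are 95%.

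The shRNA arrays were paired by a suffix that their titles share. Deviations from group means of paired arrays correlated in the shRNA arm (r = 0.323), and had r = -0.0115 in the drug arm. Blocked values are given where they change a call.

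The members and gene lists were chosen with earlier results of these data known. Named genes were the members, PRMT5, up to 4 called genes a list and comparison by lowest p (2 where none passed), and the 3 genes most like each member. Alternatives were the added constant (1 or 32), scaling, filter, choice of probe sets, samples in the fit, variance trend, replicate block and leaving out each array.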

Additional observations from a re-analysis of the deposited data

How the results depend on the processing

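Over 822 values of single members under alternative settings, 717 kept their direction and side of the threshold, 19 lost a call, 46 gained one and 40 changed sign; the cause was not tested. Of 355 values of the other named genes for CEP701 against DMSO, 107 lost a call. With CEP701 against DMSO, 819 genes were called in the reported fit, 455 with quantile normalization, 489 without a filter, 537 with the mean of probe sets, 167 without the variance trend, 3208 in a fit of the drug arrays alone, 3040 with a replicate block in both arms, 3155 with one in the shRNA arm alone and 6 to 1236 on leaving out single arrays. The members called, 1 in the reported fit, were 0 with quantile normalization, without a filter, with the mean of probe sets and without the trend, 2 with poly-A scaling, 6 in the drug arrays alone, 7 with either replicate block and 0 to 2 on leaving out arrays. CLU was -0.061 with poly-A scaling. On leaving out single arrays VWF ranged from -2.09 to 0.25 and NRGN from -0.29 to 0.023, with positive values without the first (VWF) or the second (NRGN) DMSO array.

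With PRMT5 shRNA against scramble, 21 genes were called, 0 in a fit of the shRNA arrays alone, 0 without the trend, 212 and 247 with the replicate block in both arms and in the shRNA arm alone, and 3 to 27 on leaving out arrays. No member was called under any of these settings. On leaving out arrays the differences ranged from -0.80 to 0.26 for CLU, -0.79 to 0.58 for MMRN1, -1.22 to 0.24 for NRGN, -0.71 to 0.12 for PF4, -3.31 to 1.18 for PF4V1, -0.94 to 0.080 for PPBP, -1.36 to 0.53 for SELP, -0.14 to 0.029 for SRGN and -1.18 to 0.44 for TUBB1. Positive values arose without the first PRMT5 shRNA array or the second scramble array, which breaks the pairs.

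For the difference of effects, 203 genes were called, 117 with quantile normalization, 108 with median scaling, 40 with poly-A scaling, 132 without a filter, 117 with the mean of probe sets, 0 without the trend, 2296 and 2456 with the replicate blocks and 0 to 823 on leaving out arrays. Members called were 0, with 4 and 5 under the blocks and 0 to 1 on leaving out arrays. VWF, at 0.065 in the reported fit, was -0.12 with 1 added, -0.18 with quantile normalization, -0.094 with median scaling and -0.32 with poly-A scaling, where NRGN was -0.18 and PF4V1 -0.063. On leaving out arrays VWF ranged from -1.10 to 1.24, NRGN from -0.37 to 1.09, PF4V1 from -1.92 to 2.57, PPBP from -0.59 to 0.43 and SELP from -1.08 to 0.81. For scramble against DMSO, 6486 genes and 7 members were called, and 4526 to 6799 genes and 5 to 8 members on leaving out arrays, where SELP ranged from -1.32 to 0.57. Counted over genes above the median signal on 2 or more drug-arm arrays, an alternative chosen after seeing the data, 2867 genes were higher and 2873 lower, with 5 members higher and 1 lower.

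Scaling moved the balance of calls. CEP701 raised 530 genes and lowered 289, against 241 and 676 with median scaling and 97 and 966 with poly-A scaling. The median of all genes was 0.10 in the reported fit, -0.14 with median scaling and -0.38 with poly-A scaling. For scramble against DMSO, 3608 genes were higher and 2878 lower, against 2423 and 4269 with median scaling and 2092 and 3735 with poly-A scaling, with medians of 0.11, -0.24 and -0.28. For the difference of effects, 157 were higher and 46 lower, against 61 and 47 with median scaling and 20 and 20 with poly-A scaling. PF4 had no value without _x_at probe sets, and PF4V1 none with the filter at 4 arrays. With 2 arrays a group, leaving 1 out assumes that the lone array varies like the other groups. Signals below the median of 60.0, as for PF4V1 and most VWF values in the drug arm, limit what their differences show.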
